A study of Homo sapiens with 12 samples.

Results

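The genes described here are 10 genes of the Hippo pathway output, named by symbol: ANKRD1, CCN1, CCN2, AMOTL1, AMOTL2, LATS2, AJUBA, F3, YAP1 and TEAD1. They were listed by name, as targets of YAP and TAZ and as TEAD or LATS genes, with no threshold on a measured value but with earlier results of these data known. All 10 were found by their Ensembl identifiers among the 17013 genes of the deposited table. YAP1 and TEAD1 encode the coactivator and its DNA-binding partner, and LATS2 is both a target and a kinase of the pathway.

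The expression values came from mRNA-seq of HCC1806 cells, a human triple-negative breast cancer (TNBC) line. The 12 libraries fall into 4 groups of 3 that differ in siRNA and drug. Control cells received a non-targeting siRNA (siNT) and were given vehicle (DMSO) or 1 µM doxorubicin, a topoisomerase poison that breaks DNA, the drug for 24 h. MLK4-depleted cells received a pool of 4 siRNAs against MAP3K21, the gene of the kinase MLK4 (siMLK4), and were given the same vehicle or the same doxorubicin. The methods call the cells without drug untreated and describe a single step of RNA isolation after the drug period, whereas the sample titles mark the vehicle libraries t0 and the doxorubicin libraries t24. A difference in time of harvest, if the titles mean one, cannot be told apart from the drug. The methods state that transfections were in triplicate and do not say that they were separate cultures, so p-values measure the spread between these libraries, which may be technical. A single cell line, transient knock-down by a mixture of siRNAs and 1 dose and time of the drug limit what the groups model. The comparisons below share libraries with each other, and they ask how doxorubicin and MLK4 knock-down each shifted the 10 genes, and whether the drug response differed between siNT and siMLK4 cells.

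In the Hippo pathway MST kinases activate LATS kinases, which phosphorylate the coactivators YAP and TAZ and so hold them in the cytoplasm. When the kinases are less active, as in spread cells under tension, YAP and TAZ enter the nucleus and bind TEAD transcription factors, which recognise the word GGAATG in promoters and enhancers. CCN1, CCN2 and ANKRD1 are the usual readouts of this activity, and LATS2, AMOTL2 and AJUBA are targets whose products act back on the pathway. Most control of YAP and TAZ is by protein location and stability, which mRNA levels do not measure.

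The word GGAATG, or its reverse complement CATTCC, was searched on both strands in RefSeq promoter windows, 250 bases before to 50 after each start (GRCh38.p14). Windows were at hand for 8 of the 10 members, not for CCN1 and TEAD1, and some had more than 1, which gave 10 windows. CCN2 held 3 words, ANKRD1 held 2, and AMOTL2, LATS2, AJUBA and YAP1 held 1 each, the LATS2 word downstream of the start. AMOTL2 and AJUBA each had 2 windows, and for both the word stood in that of the start farther into the gene, while the window at the 5′ end of the gene held none. AMOTL1, whose window also lay inside the gene, and F3 held none. In all, 6 of 10 windows had at least 1 word, against 14.0% of all 35116 promoter windows, of which 1.37% had at least 2 and 0.128% at least 3. A match of letters is a description and no evidence of binding. The upstream 250 bases of the CCN2 and ANKRD1 windows are printed because these genes had the most words among the members with a window and both rose upon doxorubicin in siNT cells, with the words in capitals. Both genes lie on the minus strand, CCN2 at chr6:131951373-131951622 and ANKRD1 at chr10:90921088-90921337.
CCN2: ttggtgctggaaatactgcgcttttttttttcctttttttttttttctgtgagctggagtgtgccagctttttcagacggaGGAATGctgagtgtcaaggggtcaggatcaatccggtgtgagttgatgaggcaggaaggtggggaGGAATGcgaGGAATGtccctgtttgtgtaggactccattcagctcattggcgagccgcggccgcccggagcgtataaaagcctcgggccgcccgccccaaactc
ANKRD1: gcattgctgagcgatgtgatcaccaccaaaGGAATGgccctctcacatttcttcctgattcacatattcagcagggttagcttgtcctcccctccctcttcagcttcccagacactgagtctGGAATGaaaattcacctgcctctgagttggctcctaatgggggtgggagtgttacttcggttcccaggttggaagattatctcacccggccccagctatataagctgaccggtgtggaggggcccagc

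For comparison, 30 bases around the single upstream words of YAP1 (chr11:102110273-102110302, plus strand), AJUBA (chr14:22976884-22976913, minus strand) and AMOTL2 (chr3:134374499-134374528, minus strand) read as follows, again with the word in capitals. The AMOTL2 word is the reverse complement.
YAP1: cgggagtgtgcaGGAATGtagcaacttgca
AJUBA: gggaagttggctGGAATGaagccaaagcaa
AMOTL2: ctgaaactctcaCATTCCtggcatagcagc

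**Figure D1:**
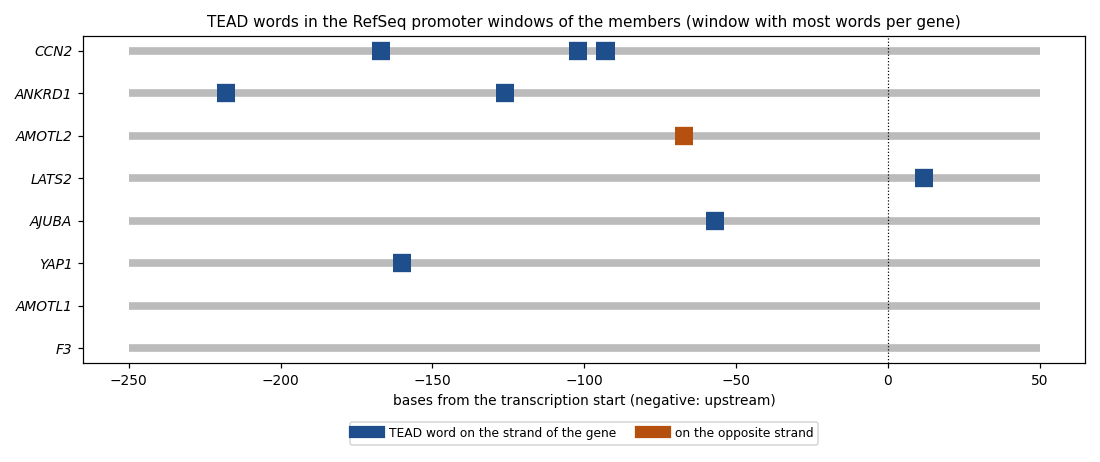
Positions of TEAD words in the promoter windows of the 8 members with a window, in bases from the transcription start, 1 grey bar per gene, which for AMOTL2 and AJUBA is the window inside the gene. CCN2 has 3 words and ANKRD1 has 2, all upstream on the strand of the gene, and AMOTL1 and F3 have none.

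The knock-down was checked first. MAP3K21 (ENSG00000143674, chr1:233327724-233385148, plus strand) had 553.1, 669.6 and 673.6 normalized reads in siNT vehicle libraries and 103.2, 94.66 and 88.65 in siMLK4 vehicle libraries. With doxorubicin it had 757.6, 856.1 and 771.6 in siNT and 112.8, 138.4 and 94.35 in siMLK4 cells. Every siMLK4 library was below every siNT library, at 15.1% of the siNT mean with vehicle and 14.5% with doxorubicin, as the labels state. Normalized reads are reads divided by the size factor of the library, with 16759025 to 19302248 reads per library in the table.

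The siRNAs are printed because their seed region can also pair with other transcripts. Each is the sense strand, in which positions 12 to 18 (capitals) spell the word that the seed of the guide strand pairs with. All 4 matched MAP3K21 coding sequence over 19 bases, in exon 9 (siMLK4 #1 at chr1:233379030-233379048 and siMLK4 #3 at chr1:233379276-233379294), exon 5 (siMLK4 #2 at chr1:233362204-233362222) and exon 7 (siMLK4 #4 at chr1:233376047-233376065).
siMLK4 #1: ggaaagaugcuCAGAGAGauu
siMLK4 #3: agaagaaacgaGAGGGAAuuu
siMLK4 #2: aggagaagcccAAGGUAAauu
siMLK4 #4: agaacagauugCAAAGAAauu

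At least 1 of the 4 seed words stood in the longest annotated 3′ untranslated region of 6 members, CCN2, AMOTL1, AMOTL2, AJUBA, YAP1 and TEAD1, against 47.4% of 13585 genes. AMOTL1 held the words of 3 siRNAs and AJUBA those of 2. None of the words stood in that of ANKRD1, CCN1, LATS2 or F3.

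Doxorubicin raised 3 members in siNT cells, CCN2, CCN1 and ANKRD1, which are the usual readouts. In siMLK4 cells CCN2 and CCN1 rose, and ANKRD1 did not pass the test. These 3 of 10 and 2 of 10 members compare with 22.7% and 23.2% of all genes called upon doxorubicin. MLK4 knock-down lowered F3 in vehicle and lowered ANKRD1 in the presence of doxorubicin. The other members did not pass the test in these comparisons. limma was fitted to all 17013 genes and 12 libraries. A call needed a Benjamini-Hochberg adjusted p below 0.01 together with a log2 change beyond 0.75 in either direction. The log2 fold changes are on the variance-stabilized scale of the table, which understates changes of genes with few reads, so ratios of mean normalized reads are given beside those of the members, and ratios or levels beside those of other genes with few reads.

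**Figure D2:**
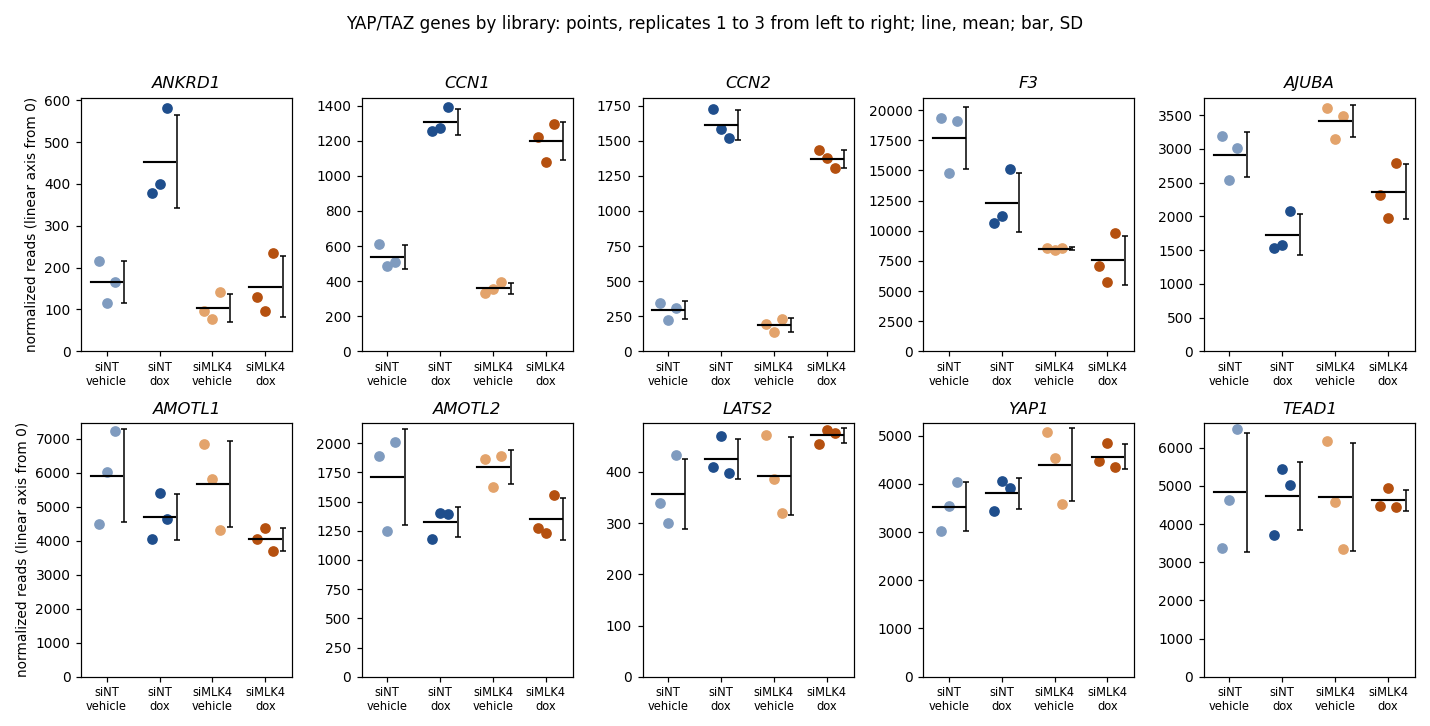
Normalized reads of the 10 members in each of the 12 libraries on linear axes that start at 0, with 1 point per library, the group mean as a line and the SD as a bar. CCN1 and CCN2 were higher in every doxorubicin library than in any vehicle library, ANKRD1 was highest in the siNT doxorubicin libraries, and F3 was lower in every siMLK4 vehicle library than in any siNT vehicle library.

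CCN2 (ENSG00000118523, chr6:131948176-131951372, minus strand) encodes connective tissue growth factor, a secreted matricellular protein. It had 345.2, 226.3 and 312.1 normalized reads in siNT vehicle libraries and 1728, 1584 and 1518 in siNT doxorubicin libraries. In MLK4-depleted cells it had 193.4, 138.5 and 231.4 with vehicle and 1432, 1378 and 1306 with doxorubicin. The doxorubicin libraries did not overlap the vehicle libraries in either siRNA group. The means stood 5.47-fold apart in siNT cells (log2 fold change 2.28, SE 0.15, limma adjusted p = 8.4e-08) and 7.31-fold apart in siMLK4 cells (2.60, SE 0.15, adjusted p = 4e-08). These were the largest changes of any member. Knock-down left CCN2 at 63.7% of the siNT mean in vehicle (−0.54, 95% interval −0.87 to −0.21, adjusted p = 0.018), where 1 library of each group overlapped, and at 85.2% with doxorubicin (−0.22, −0.55 to 0.11, adjusted p = 0.32), where the groups did not overlap. Neither difference passed the test.

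CCN1 (ENSG00000142871, chr1:85580761-85584589, plus strand) encodes CYR61, a secreted protein of the same family that binds integrins. Its siNT libraries held 614.1, 489.0 and 510.8 normalized reads with vehicle and 1255, 1271 and 1393 with doxorubicin. Its siMLK4 libraries held 330.6, 354.7 and 392.4 with vehicle and 1222, 1079 and 1296 with doxorubicin. All vehicle libraries of siMLK4 cells lay below all vehicle libraries of siNT cells, whereas the doxorubicin libraries of both overlapped. Doxorubicin raised the mean 2.43-fold in siNT cells (log2 fold change 1.21, SE 0.11, limma adjusted p = 1.1e-06) and 3.34-fold in siMLK4 cells (1.60, SE 0.11, adjusted p = 1.3e-07). The vehicle level in MLK4-depleted cells was 66.8% of that in siNT cells (−0.52, −0.76 to −0.28, adjusted p = 0.0041), which is inside the p threshold and short of the fold threshold. With doxorubicin it was 91.8% (−0.12, −0.36 to 0.12, adjusted p = 0.47).

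ANKRD1 (ENSG00000148677, chr10:90912096-90921087, minus strand) encodes a nuclear and sarcomeric ankyrin repeat protein. It had 214.9, 116.3 and 166.1 normalized reads in siNT vehicle libraries, then 379.3, 400.1 and 581.0 with doxorubicin. In siMLK4 cells it had 95.18, 76.72 and 141.6 with vehicle and 129.7, 96.73 and 235.9 with doxorubicin. The siNT doxorubicin libraries stood above all 9 others, and the siMLK4 doxorubicin libraries overlapped both vehicle groups. ANKRD1 rose 2.74-fold upon doxorubicin in siNT cells (log2 fold change 1.23, SE 0.25, limma adjusted p = 0.00073). In siMLK4 cells the ratio was 1.47 (0.37, −0.15 to 0.90, adjusted p = 0.21). With each library left out in turn, this log2 fold change ran from 0.10 to 0.59. With doxorubicin, knock-down left ANKRD1 at 34.0% of the siNT mean (−1.35, SE 0.25, adjusted p = 0.0013). In vehicle it was at 63.0% (−0.49, −1.02 to 0.04, adjusted p = 0.16). Its spread within groups was larger than that of 98.1% of genes, and the siMLK4 doxorubicin library of replicate 3, at 235.9 normalized reads, was the highest of its group.

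F3 (ENSG00000117525, chr1:94529173-94541759, minus strand) encodes tissue factor, the cell surface receptor that starts blood coagulation. Control cells had 19346, 14752 and 19080 normalized reads with vehicle, and MLK4-depleted cells 8607, 8398 and 8538. With doxorubicin the siNT libraries held 10621, 11244 and 15106 and the siMLK4 libraries 7094, 5733 and 9787. No siMLK4 library reached a siNT library of the same treatment. F3 fell in vehicle to 48.0% of the siNT mean (log2 fold change −1.04, SE 0.18, limma adjusted p = 0.00096). With doxorubicin it was at 61.2% (−0.72, −1.11 to −0.33, adjusted p = 0.01), just outside both thresholds, and it passed them without the siMLK4 doxorubicin library of replicate 3 (−0.93, adjusted p = 0.0019). Upon doxorubicin F3 was at 69.5% of vehicle in siNT cells (−0.53, −0.92 to −0.14, adjusted p = 0.023) and at 88.5% in siMLK4 cells (−0.21, −0.60 to 0.18, adjusted p = 0.34), neither of which passed. CCN1 and F3 thus lay on opposite sides of 0 upon doxorubicin and on the same side upon knock-down in vehicle.

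AJUBA encodes a LIM domain scaffold that binds LATS kinases. Its siNT libraries held 3187, 2537 and 3013 normalized reads with vehicle and 1538, 1572 and 2074 with doxorubicin. Its siMLK4 libraries held 3602, 3140 and 3482 with vehicle and 2318, 1981 and 2797 with doxorubicin. Doxorubicin and vehicle libraries did not overlap in either siRNA group. The doxorubicin mean was 59.3% of vehicle in siNT cells (log2 fold change −0.74, −1.05 to −0.43, limma adjusted p = 0.00062), which is the value nearest to the fold threshold without passing it. It was past it, at −0.76 to −0.79, on log2 scales of the reads, with another scaling, with limma-voom and with a length covariate. With library totals it was −0.52 (adjusted p = 0.0059) and farther from the threshold. In siMLK4 cells the mean was 69.4% of vehicle (−0.53, −0.84 to −0.22, adjusted p = 0.0065). AJUBA was at 117% of the siNT mean upon knock-down in vehicle and at 137% with doxorubicin (0.44, 0.13 to 0.75, adjusted p = 0.039), and neither passed.

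The angiomotin-like scaffolds bind YAP at cell junctions and did not pass in any comparison. AMOTL1 ranged from 3703 to 7224 normalized reads over the 12 libraries and AMOTL2 from 1178 to 2011. Their doxorubicin means in siMLK4 cells were 71.4% (log2 fold change −0.46, −0.85 to −0.06, limma adjusted p = 0.045) and 75.3% (−0.40, −0.74 to −0.06, adjusted p = 0.043) of vehicle. In siNT cells the values were −0.31 (−0.70 to 0.08) and −0.33 (−0.67 to 0.01). All 4 doxorubicin estimates of these genes were thus below 0 and none passed, and with knock-down the intervals of both genes in this fit held 0 in vehicle and with doxorubicin.

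LATS2, the kinase that phosphorylates YAP and TAZ, ranged from 300.0 to 482.8 normalized reads. Its log2 fold changes were 0.23 (−0.07 to 0.54) and 0.25 (−0.05 to 0.55) upon doxorubicin in siNT and siMLK4 cells, and 0.12 (−0.19 to 0.42) and 0.13 (−0.17 to 0.44) upon knock-down in vehicle and with doxorubicin. YAP1, the coactivator, had 3021, 3530 and 4036 normalized reads in siNT vehicle libraries and 5080, 4531 and 3585 in siMLK4 vehicle libraries. With doxorubicin it had 3429, 4055 and 3919 in siNT and 4467, 4855 and 4358 in siMLK4 cells. The vehicle libraries overlapped and the doxorubicin libraries did not. The knock-down means were 125% (log2 fold change 0.31, 0.01 to 0.61, limma adjusted p = 0.12) and 120% (0.26, −0.03 to 0.56, adjusted p = 0.19) of siNT, and did not pass. TEAD1, the DNA-binding partner, ranged from 3354 to 6490 normalized reads, and its 4 estimates lay between −0.03 and 0.02. The interval for doxorubicin in siMLK4 cells, −0.48 to 0.51, shows that smaller changes of TEAD1 were not detectable with this spread.

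**Figure D3:**
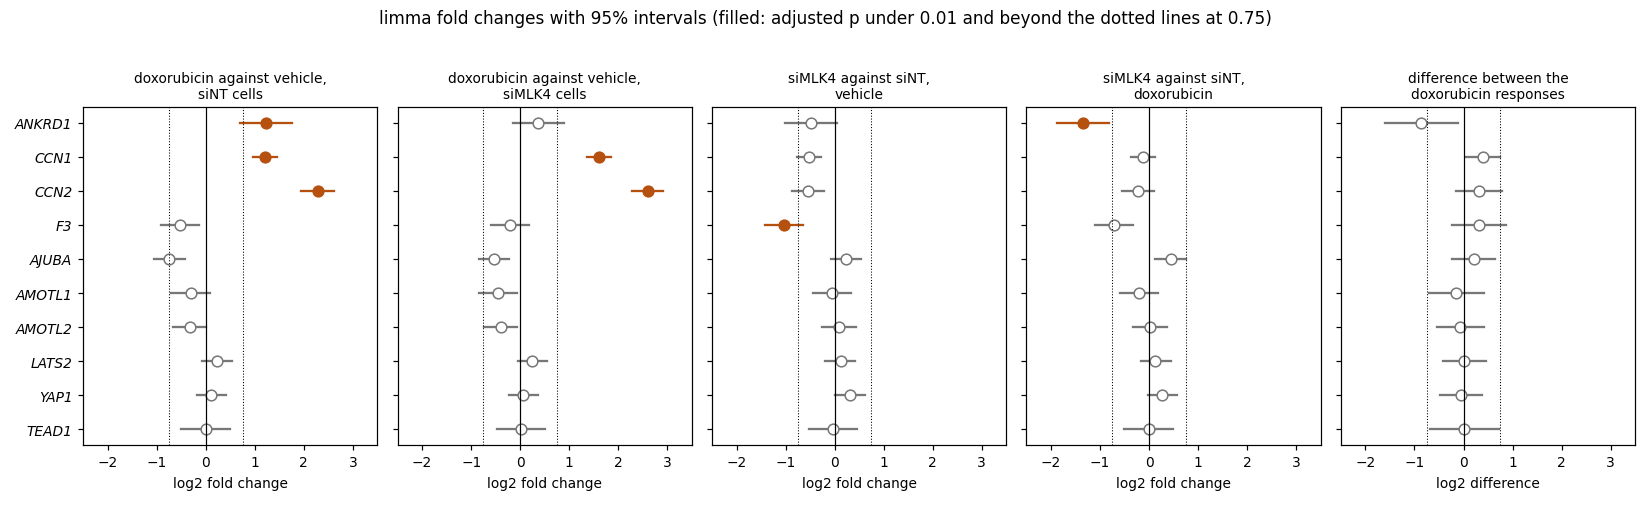
log2 fold changes of the 10 members (points) with 95% intervals (lines) from limma in the 4 comparisons, and the log2 difference between the doxorubicin responses in the panel on the right. Filled points passed an adjusted p of 0.01 and the fold threshold of 0.75 (dotted lines): 3 in siNT cells and 2 in siMLK4 cells upon doxorubicin, 1 upon knock-down in vehicle, 1 upon knock-down with doxorubicin and 0 for the difference.

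The counts of members were set beside those of all genes. Upon doxorubicin in siNT cells 3 of 10 members were called, all higher, where 22.7% of all genes were called (12.1% higher and 10.6% lower). In siMLK4 cells 2 of 10 were called, both higher, against 23.2% of all genes (12.6% higher and 10.6% lower). Upon knock-down, F3 alone was called in vehicle, against 5.65% of all genes (2.51% higher and 3.14% lower). ANKRD1 alone was called with doxorubicin, against 5.58% (2.66% higher and 2.93% lower). The share of members called was near the background upon doxorubicin, and 1 of 10 upon knock-down is 1 gene. The median log2 fold change over the members was 0.05 and 0.04 upon doxorubicin in siNT and siMLK4 cells, and −0.05 and −0.07 upon knock-down in vehicle and with doxorubicin. Over all genes the medians were 0.00, 0.02, 0.01 and 0.02. With an adjusted p under 0.05 and no fold threshold, 5 members passed in each doxorubicin comparison (57.3% of all genes in siNT and 57.9% in siMLK4 cells) and 3 in each knock-down comparison (25.8% in vehicle and 24.8% with doxorubicin). As in any bulk measurement, fewer cells with a transcript and less of it per cell cannot be told apart.

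The doxorubicin responses of the 2 siRNA groups were compared directly. With limma, 0 of 10 members passed the call for this difference, as did 0.276% of all genes (0.0999% higher and 0.176% lower in siMLK4 cells), and limma-voom on the reads also called 0. At an unadjusted p under 0.05, a level that 14.5% of all genes passed, 2 members did. The response of ANKRD1 was smaller in siMLK4 cells by 0.86 on the log2 scale (difference −0.86, −1.60 to −0.11, unadjusted p = 0.028, limma adjusted p = 0.26), and that of CCN1 larger (difference 0.40, 0.05 to 0.74, unadjusted p = 0.026, adjusted p = 0.26). CCN2 stood at 0.32 (−0.15 to 0.78, adjusted p = 0.56). So the call of ANKRD1 in siNT cells and not in siMLK4 cells is not by itself a tested difference, and the sign of the estimate was opposite for ANKRD1 and for the CCN genes.

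Per kilobase of merged exons, the only scale here on which genes are compared with each other, F3 was the highest member in all 4 groups, at 6142 normalized reads per kilobase in siNT vehicle cells and 2950 in siMLK4 vehicle cells. The next member in siNT vehicle cells was AMOTL1 at 589, followed by YAP1 at 559, AJUBA at 495 and TEAD1 at 452, and the libraries of each of these overlapped those of the next. AMOTL2 followed at 265, and then CCN1 (145), CCN2 (126), ANKRD1 (92.6) and LATS2 (63.7), whose libraries again overlapped from each to the next. With doxorubicin in siNT cells CCN2 moved from rank 8 to rank 2, at 689 normalized reads per kilobase, above YAP1 (602) in every library. In siMLK4 doxorubicin cells it was at rank 3 (587), below YAP1 (723) and above TEAD1 (432) in every library. The lowest 2 members there were ANKRD1 (86.1) and LATS2 (84.0), which overlapped.

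Within groups the members deviated in blocks, and the share of all genes that did so in the same libraries was not counted. In siNT vehicle cells the library of replicate 2 was the lowest for 7 of 10 members, ANKRD1, CCN1, CCN2, AMOTL2, LATS2, AJUBA and F3. In siMLK4 vehicle cells the library of replicate 2 was the lowest for 5 of 10. In siNT doxorubicin cells the library of replicate 1 was the lowest for 8 of 10, all but CCN2 and LATS2, and the 3 calls upon doxorubicin in siNT cells were kept without it. ANKRD1, CCN1, AJUBA and F3 were all highest in replicate 3 of both doxorubicin groups. AMOTL1, YAP1 and TEAD1 followed another order. For these 3 genes, the order of the 3 libraries was the order of their length slopes in 4 of 4 groups, which held for none of the 4 groups in ANKRD1, CCN1, CCN2, AJUBA and F3. The length slope is the change in log2 level per doubling of exon length over 12363 genes of a library, relative to the mean library, and it ran from −0.096 to 0.099. AMOTL1 and TEAD1 are the longest members, with 10030 and 10700 bases of merged exons, against 6311 for YAP1. AMOTL2, with 6479 bases, followed the slopes in 1 of 4 groups and their reverse in 1, and LATS2, with 5613, followed them in 1. CCN1 followed the reverse order in 2 of 4 groups, ANKRD1, AJUBA and F3 in 1 each and CCN2 in 0. With the length slope as a covariate, an alternative chosen after the data were seen, the values of YAP1 upon knock-down were 0.33 in vehicle and 0.25 with doxorubicin. Their limma adjusted p-values were then 0.00042 and 0.0033, still under the fold threshold. AMOTL1 was then at −0.37 upon doxorubicin in siMLK4 cells (adjusted p = 7e-05) and at −0.22 upon knock-down with doxorubicin (adjusted p = 0.0078), also short of the fold threshold. TEAD1 moved to 0.17 upon doxorubicin in siNT cells and to 0.01 upon knock-down in vehicle, which turned its sign. The part of the length slope in the other results was not tested beyond this covariate, under which the 7 calls of the members were kept.

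**Figure D4:**
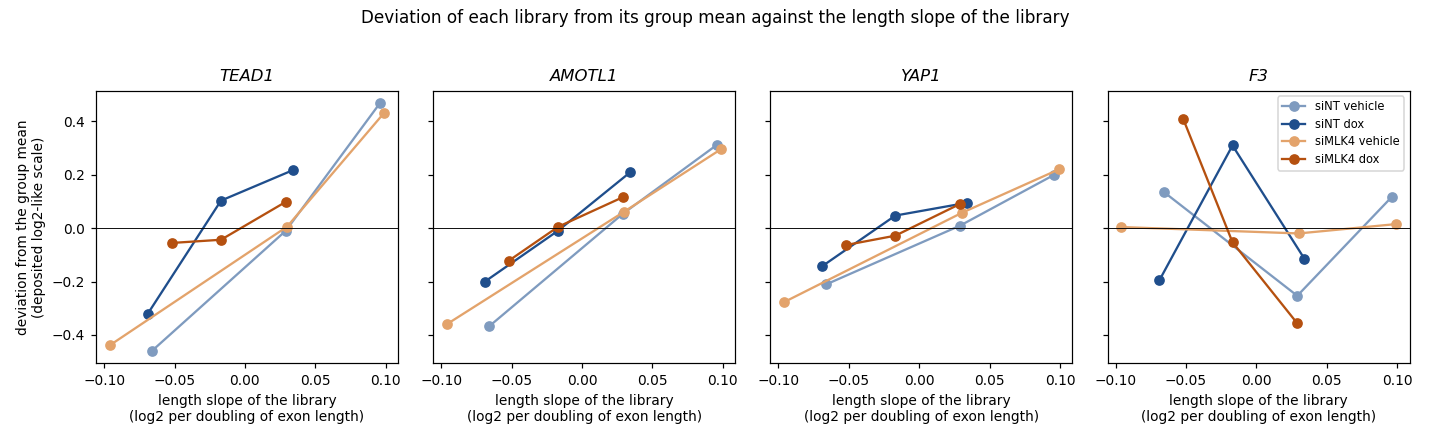
Deviation of each library from its group mean on the deposited scale for TEAD1, AMOTL1, YAP1 and F3, against the length slope of that library, with 1 line per group of 3 libraries. For the first 3 genes each line rises from the library with the lowest slope to that with the highest, and for F3 the lines do not follow the slope.

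Other genes of the pathway were read from lists of gene names. Of 16 further YAP/TAZ targets, 15 were in the table. In siNT cells 4 of them rose and 3 fell upon doxorubicin, with a median of −0.17, and in siMLK4 cells 4 rose and 4 fell, with a median of −0.18. Over all genes 22.7% and 23.2% were called in these 2 comparisons. TGFB2, a secreted growth factor, had 39.92, 44.64 and 49.40 normalized reads in siNT vehicle and 210.4, 277.9 and 264.6 in siNT doxorubicin libraries (log2 fold change 1.73, limma adjusted p = 1.5e-07) and also rose in siMLK4 cells (1.36), with means 5.62-fold and 3.45-fold apart. MYOF, a membrane repair protein, fell in both siRNA groups (−1.06 and −1.37). These further targets were thus called in both directions upon doxorubicin. No member was called lower, although AJUBA was at the fold threshold in siNT cells and was called in several alternatives, and the lists were not tested against each other.

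Knock-down called 3 of the 15 further targets in vehicle, 1 higher and 2 lower (median 0.07), and 2 with doxorubicin, 1 higher and 1 lower (median −0.09). These counts stand beside 5.65% and 5.58% of all genes called. CCDC80, a secreted matrix protein, rose upon knock-down from 280.6, 236.7 and 321.1 to 1170, 1128 and 1472 normalized reads in vehicle (log2 fold change 1.98, limma adjusted p = 6e-07). It rose upon doxorubicin as well (1.85 in siNT and 1.26 in siMLK4 cells). NT5E, the ectoenzyme CD73, fell upon knock-down from 2112, 2419 and 2585 to 781.5, 800.1 and 494.1 (−1.73, adjusted p = 3.9e-06) and stood lower with doxorubicin too (−1.44). CCDC80 and NT5E were thus called in opposite directions by the same knock-down, and the groups did not overlap for either.

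Among 23 Hippo kinases, scaffolds and upstream cadherins, 1 rose and 1 fell upon doxorubicin in siNT cells, 3 rose and 2 fell in siMLK4 cells, and upon knock-down 1 fell with doxorubicin. Of all genes, 22.7%, 23.2% and 5.58% were called in these comparisons. In vehicle knock-down limma called 0 of the 23, against 5.65% of all genes. At an adjusted p under 0.05 it had 10 of the 23, a level that 25.8% of all genes passed. MAP4K2, a kinase that can activate LATS, fell upon doxorubicin in siNT (log2 fold change −0.98) and siMLK4 cells (−1.06). DCHS1, a large cadherin, rose in siNT cells from 1.174, 4.153 and 7.858 to 45.22, 44.79 and 46.64 normalized reads, means that stood 10.4-fold apart (log2 fold change 1.22). In siMLK4 cells it rose from 19.04, 16.94 and 6.487 to 64.44, 70.88 and 70.77, a ratio of 4.85 (1.11). AMOT, the third angiomotin, had 0 reads in all 6 vehicle libraries, and 12, 6.108 and 3.042 normalized reads in siNT and 29.68, 26.68 and 9.980 in siMLK4 doxorubicin libraries. In siMLK4 cells that was at least 7.18-fold higher, against a floor of 3 reads per library. AMOT, which is among the 3 that rose there, could be in the filtered table only through its doxorubicin libraries. Its direction was thus fixed by the filter. FRMD6, a scaffold upstream of the kinases, was at 50.4% of siNT upon knock-down with doxorubicin (−0.95, limma adjusted p = 0.00033).

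Of 8 TEAD factors and cofactors beyond TEAD1, 7 were in the table. WWTR1, which encodes TAZ, ranged from 990.3 to 1530 normalized reads over the 12 libraries and was not called in any comparison. VGLL1, a cofactor that competes for TEAD, fell upon doxorubicin from 554.2, 534.7 and 647.8 to 239.9, 285.0 and 421.8 normalized reads in siNT cells (log2 fold change −0.81, limma adjusted p = 0.0023). In siMLK4 cells it fell from 802.5, 699.5 and 824.9 to 173.8, 150.9 and 278.5 (−1.75, adjusted p = 4.3e-06). VGLL3, a related cofactor, rose upon doxorubicin in siNT cells from 32.88, 65.41 and 71.85 to 128.3, 197.5 and 117.6 normalized reads, a ratio of 2.61 (0.94, adjusted p = 0.0013), and with doxorubicin was at 34.9% of siNT upon knock-down (−0.99, adjusted p = 0.0029). In siMLK4 cells VGLL3 was at 80.6% of vehicle upon doxorubicin (−0.16, adjusted p = 0.53). The difference between the responses of VGLL3 was −1.09 (limma adjusted p = 0.081) and did not pass. ANKRD1 and VGLL3 thus were called in the same 2 comparisons and in the same directions. Their estimates upon doxorubicin in siMLK4 cells had opposite signs, and neither was called.

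SRF and its MRTF coactivators act on some of the same promoters as TEAD. Of 16 such genes 15 were in the table, of which 2 rose and 2 fell upon doxorubicin in siNT cells and 2 rose and 3 fell in siMLK4 cells. The shares of all genes called were 22.7% and 23.2%. ACTA2, smooth muscle actin, rose from 11.74, 19.73 and 17.96 to 179.0, 172.0 and 102.4 normalized reads in siNT cells (log2 fold change 1.78, limma adjusted p = 1.1e-05). The cytoplasmic actins ACTG1 (−2.11, adjusted p = 1.4e-08) and ACTB (−1.21, adjusted p = 2e-05) fell. MYL9, a myosin light chain, rose upon knock-down in vehicle from 56.36, 53.99 and 53.89 to 181.3, 159.4 and 238.9 normalized reads (1.25). Upon doxorubicin it fell in siMLK4 cells to 42.40, 43.36 and 60.79 (−1.35) and in siNT cells it stood at 23.99, 21.38 and 45.62 (−0.47, adjusted p = 0.018), which was below vehicle in every library and was not called. The difference between its responses was −0.88 (limma adjusted p = 0.067) and did not pass. Upon knock-down with doxorubicin 1 of the 15, FHL2, was called lower, where 5.58% of all genes were called.

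**Figure D5:**
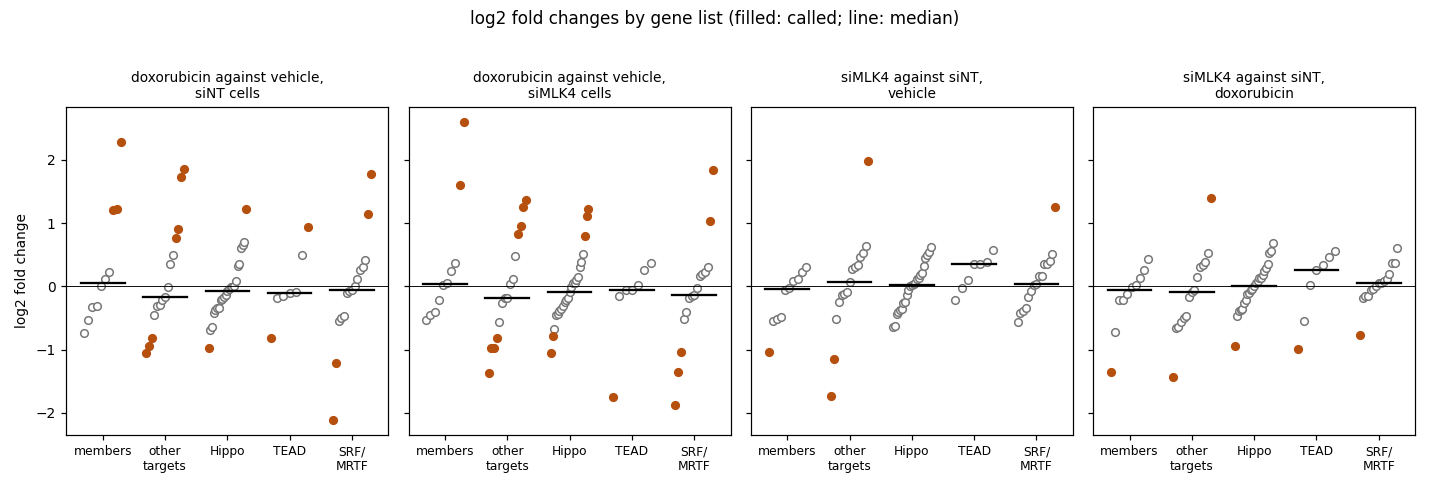
log2 fold changes of each gene (points) in the members and in 4 other lists of gene names, for the 4 comparisons, with called genes filled and the median of each list as a line. In siNT cells upon doxorubicin the called genes of every list but the members lie on both sides of 0, and the medians of the 5 lists run from −0.17 to 0.05.

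By pattern over the 12 libraries, the genes most like CCN2 among 3675 candidates with group means at least 1 unit apart were SLC41A3 (Pearson r = 0.993), HACD1 (0.989) and SLC12A4 (0.988). For CCN1 they were SLC12A4 (0.989), DUSP1 (0.989) and SNAPC1 (0.986), and for ANKRD1 they included KRT9 (0.961) and CXCL1 (0.945). SLC12A4 was among the nearest genes of both CCN genes and not among those of ANKRD1. These coefficients mostly reflect the 4 shared groups and are a description.

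The cell line was checked against marker genes. All 8 basal epithelial markers were in the table, and their summed level was 73915 ± 2817 normalized reads (SD, n = 3) in siNT vehicle, 41359 ± 2314 in siNT doxorubicin, 68088 ± 2582 in siMLK4 vehicle and 29442 ± 1863 in siMLK4 doxorubicin libraries. Per kilobase, EPCAM was the highest of them in siNT doxorubicin (5467 normalized reads per kilobase) and siMLK4 doxorubicin cells (3530), and KRT5 in siMLK4 vehicle cells (7805). In siNT vehicle cells the libraries of EPCAM (5688) and KRT5 (5052) overlapped. Upon doxorubicin 5 of the 8, KRT5, KRT6A, KRT14, EGFR and TP63, fell in both siRNA groups, in each of which 10.6% of all genes were called lower. KRT5 fell by 1.24 and 2.20 on the log2 scale in siNT and siMLK4 cells, and TP63 by 1.60 and 1.58. KRT14 and KRT6A also fell upon knock-down in vehicle (log2 fold change −1.05 and −1.19), and with doxorubicin 3 of the 8 fell upon knock-down, KRT14 (−1.26), KRT6A (−1.03) and KRT17 (−0.82). In vehicle KRT5 was higher upon knock-down, at 155% of siNT (0.64, limma adjusted p = 0.0074), and CDH1 was at 130% (0.38, adjusted p = 0.058). Neither was called. Of the 8 knock-down estimates, 3 were above 0 and 5 below in vehicle, and 2 above and 6 below with doxorubicin. KRT17, EPCAM and CDH1 did not pass upon doxorubicin, with KRT17 at −0.01 and −0.17, EPCAM at −0.04 and −0.05 and CDH1 at −0.28 and −0.34 in siNT and siMLK4 cells. The part of these markers in the results was not tested, for CCN1 and CCN2 upon doxorubicin as for F3 and ANKRD1, which were called in the same knock-down comparisons. Of the 3 luminal receptors, ERBB2 was the most abundant, with group means of 1459 to 1893 normalized reads, and was not called upon doxorubicin. ESR1, the estrogen receptor, reached at most 148.5 normalized reads in any library. Upon doxorubicin ESR1 was called lower in siMLK4 cells, at 41.8% of vehicle (log2 fold change −0.78, limma adjusted p = 0.0014). In siNT cells ESR1 was at 50.2% of vehicle (−0.61, adjusted p = 0.0072) and was not called. PGR was at 0 in all 6 vehicle libraries. With doxorubicin it had 18.46, 12.22 and 9.125 normalized reads in siNT and 11.87, 15.84 and 7.258 in siMLK4 cells. That was at least 3.98-fold and 3.79-fold higher against the floor of 3 reads per library. PGR could be in the filtered table only through its doxorubicin libraries, so this direction was fixed by the filter.

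Markers of other cell types were few. Of 6 fibroblast markers COL1A2, COL3A1 and DCN were not in the table, and COL1A1 (mean 371.9 normalized reads), LUM and PDGFRB were. The sum of these 3 was 474, 390 and 451 in siNT vehicle, 306, 285 and 282 in siNT doxorubicin, 728, 667 and 834 in siMLK4 vehicle and 415, 362 and 503 in siMLK4 doxorubicin libraries. The fibroblast sum was lower with doxorubicin in both siRNA groups, where LUM was called lower, at 15.3% of vehicle in siNT and 8.67% in siMLK4 cells (log2 fold change −1.56 and −2.05). It was higher upon knock-down with vehicle and with doxorubicin, without overlap, and COL1A1 was called higher upon knock-down in vehicle (0.78, limma adjusted p = 0.00041). Of 5 immune markers CD14 and PTPRC were in the table, and their sum was 12.9, 18.7 and 19.1 normalized reads in siNT vehicle, 52.6, 38.7 and 44.6 in siNT doxorubicin, 19, 29.9 and 36.8 in siMLK4 vehicle and 49.2, 64.2 and 50.8 in siMLK4 doxorubicin libraries. The immune sum was higher with doxorubicin in both siRNA groups, and PTPRC was called higher in siMLK4 cells (log2 fold change 0.84, limma adjusted p = 0.00018), from 0, 1.993 and 3.243 to 11.87, 20.85 and 20.87 normalized reads. Its vehicle means, 5.48 in siNT and 1.75 in siMLK4 cells, were under the 10.67 that every gene of the filtered table reached in its highest group. PTPRC could thus be in the table only through its doxorubicin libraries, and its direction was fixed by the filter. The part of both sums in the results was not tested. Of 3 endothelial markers VWF alone was in the table, and its level reached at most 67.1 normalized reads. Upon knock-down VWF was at 189% of siNT in vehicle (log2 fold change 0.46, limma adjusted p = 0.064), where the libraries overlapped. With doxorubicin VWF was at 182% (0.43, adjusted p = 0.084), without overlap. Neither was called, and the part of VWF in the results was not tested.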

How the data were processed

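The mRNA-seq table of HCC1806 cells holds 12 libraries, 3 in each of 4 groups taken from the sample labels, and all were used. Per the submitters' processing notes, reads were handled with Trimmomatic 0.39, HISAT2, HTSeq 0.6.0 and DESeq2 1.26.0 on hg19, whereas the methods name GRCh38. Coordinates here are of GENCODE 44 on GRCh38. As deposited, the values are log2-like, the authors' DESeq2 variance-stabilizing transformation of reads scaled by size factors, as read from the values themselves. Inverting it returned whole reads (tolerance 0.05) for 100.0% of values, with size factors of 0.8516 to 1.1993. The table had been filtered, and no gene averages under 10.67 normalized reads in its highest group. limma 3.58.1 (R 4.3.3; lmFit, eBayes with a variance trend) was run on the deposited values with 4 group means. Its test was checked on simulated data. Alternatives were limma-voom, log2(normalized reads + 1 or + 4), TMM scaling, library totals, a minimum of 10 reads, no trend, only the groups compared, other thresholds, a replicate block, each library left out, and, chosen after the data were seen, a length covariate. The members, lists and tests were chosen with earlier results of these data known. By rule, the text names all members, MAP3K21, up to 4 called genes per list with the largest change, and for ANKRD1, CCN1 and CCN2 the 3 genes nearest in pattern, of which 1 is not reported here. WWTR1, FHL2 and WWC1 were named after their values were seen. Deviations of equally numbered libraries had correlations of 0.56, 0.13 and 0.24 in doxorubicin against vehicle in siNT cells. They were 0.26, 0.62 and 0.61 in siMLK4 against siNT with doxorubicin. In doxorubicin against vehicle in siMLK4 cells they were −0.10, 0.25 and 0.41, and in siMLK4 against siNT in vehicle −0.82, 0.44 and −0.59. Read from the values alone, they do not settle whether equal numbers pair libraries in any comparison.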

Additional observations from a re-analysis of the deposited data

Results flagged for a closer look

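KRT5, a basal keratin, was not called for the difference between its doxorubicin responses, and was flagged at a level that 204 of 17013 genes passed. It went from 17185, 22489 and 22960 to 7659, 8316 and 10476 normalized reads in siNT cells and from 33618, 31749 and 31405 to 6996, 5954 and 8155 in siMLK4 cells, and limma's test of the difference gave −0.96 on the log2 scale (−1.42 to −0.50, adjusted p = 0.047), below 0.05 and above the threshold of 0.01 used for calls. WWC1, which encodes the Hippo scaffold KIBRA and was singled out after its values were seen, had doxorubicin estimates of opposite sign in the siRNA groups, 0.32 with control siRNA (limma adjusted p = 0.018) and −0.24 after knock-down (adjusted p = 0.062), neither of which was called. All siNT doxorubicin libraries (1228, 1432 and 1511 normalized reads) lay above the siNT vehicle libraries (1108, 1097 and 1087), and all siMLK4 doxorubicin libraries (1451, 1351 and 1539) lay below the siMLK4 vehicle libraries (1838, 1784 and 1554). The difference was −0.57 (−0.89 to −0.25, limma adjusted p = 0.082) and did not pass. In this fit no member had a difference at an adjusted p under 0.05. No member moved in opposite directions in the siRNA groups with doxorubicin libraries apart from vehicle libraries in both. With the length covariate the difference of CCN1 was 0.41 (limma adjusted p = 0.039), against 0.40 (adjusted p = 0.26) without it. Outlying libraries were not tested for in groups of 3.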

How the results depend on the processing

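The 7 calls of members (ANKRD1 upon doxorubicin in siNT cells and upon knock-down with doxorubicin, CCN1 and CCN2 upon doxorubicin in both siRNA groups, F3 upon knock-down in vehicle) kept their direction and passed the test in all 154 values recomputed under the alternatives, with each library left out included. With adjusted p under 0.05 and no fold threshold, the count of members upon doxorubicin was 5 in siNT and 5 in siMLK4 cells, and 3 in each knock-down comparison. With the replicate block the counts were 3, 2, 1, 1 and 0, as in the fit without it, and no call of a member changed. With library totals the median of all genes shifted by 0.24 and 0.21 upon doxorubicin in siNT and siMLK4 cells, by 0.16 and 0.12 upon knock-down in vehicle and with doxorubicin, and by −0.04 for the difference, and changes read on that scale are relative to it. Signs turned only for values of 0.15 or less in size. TEAD1 upon doxorubicin in siNT cells was 0.24 with library totals and 0.17 with the length covariate. Upon knock-down in vehicle it was 0.11 and 0.01 in the same settings, and with doxorubicin 0.01 with TMM scaling and 0.07 with library totals. The difference of its responses was −0.04 in both. AMOTL1 upon knock-down in vehicle was 0.08 with library totals, and the difference of LATS2 was −0.04 with library totals and −0.01 with the length covariate. The cause of these sign changes was not tested.

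With each library left out in turn, the number of members called upon knock-down with doxorubicin ran from 1 to 2, the 2 without the siMLK4 doxorubicin library of replicate 3. TEAD1 ran from −0.23 to 0.23 upon doxorubicin in siNT cells, −0.20 to 0.23 in siMLK4 cells, −0.26 to 0.20 and −0.17 to 0.09 upon knock-down in vehicle and with doxorubicin, and −0.22 to 0.25 for the difference. YAP1 ran from −0.07 to 0.17 upon doxorubicin in siMLK4 cells and from −0.19 to 0.06 for the difference. AMOTL1 ran from −0.24 to 0.12 upon knock-down in vehicle and from −0.33 to 0.03 for the difference. AMOTL2 ran from −0.12 to 0.22 and −0.08 to 0.09 upon knock-down in vehicle and with doxorubicin, and from −0.19 to 0.14 for the difference. LATS2 ran from −0.01 to 0.25 upon knock-down in vehicle and from −0.11 to 0.14 for the difference. AJUBA upon doxorubicin in siNT cells, −0.74, ran from −0.88 to −0.67 and passed the fold threshold without the siNT vehicle library of replicate 2 or the siNT doxorubicin library of replicate 3. F3 upon knock-down with doxorubicin ran from −0.93 to −0.54. Depth was alike in the libraries, so the spread between 3 libraries, largest for ANKRD1 and TEAD1 among the members, sets what could be detected.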
